A study of Mus musculus with 6 samples.

Results

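At 1273 gene-end sites in mouse granulosa cells, RUNX1 peaks were called in both libraries taken 6 h after the ovulatory hormone, while the peaks called before it were not replicated. These 1273 regions are a subset of 17190 regions with a chromatin immunoprecipitation sequencing (ChIP-seq) peak in both 6h libraries. They were chosen by peak overlap and position. A 6h region entered when it was narrower than 2000 bp, overlapped a 0h peak but no region with a peak of both 0h libraries, and had its summit within 1 kb of an annotated gene end. Of 8595 6h regions under 2000 bp at gene ends, 14.8% (95% exact interval 14.1% to 15.6%) qualified. A further 292 overlapped a region replicated at 0h, and 7030 overlapped no 0h peak. Away from gene ends, 684 of 8361 regions under 2000 bp overlapped only unreplicated 0h peaks, 8.18%. Because the rule used peak calls, the fold and pileup values below describe the members and are given without a test.

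RUNX1 is the DNA-binding subunit of core-binding factor. It pairs with CBFB, recognises a short word usually written TGTGGT or TGCGGT, and recruits coactivators such as p300 and CBP or corepressors of the Groucho (TLE) family. Granulosa cells are the somatic cells around the oocyte. The surge of luteinising hormone, for which human chorionic gonadotropin (hCG) stands in here, makes them stop dividing, mature and release the oocyte, and RUNX1 is among the transcription factors that this surge induces in them.

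All samples came from CBA x C57BL/6 F1 mice aged 21 days that were primed with 5 IU of equine chorionic gonadotropin (eCG), a hormone that drives follicle growth. The 0h group is labelled as pre-ovulatory granulosa cells at 0h post-hCG, and the 6h group as peri-ovulatory granulosa cells 6 h after 5 IU of hCG, given 46 h after eCG. Each group has 2 RUNX1 ChIP libraries and 1 pooled input, which entered only through the peak calls. The treatment text of every sample describes only the 6h collection, and the 0h group was therefore assigned from sample titles and time points. The labels do not say how many animals each library pooled, and with 2 libraries against 2 an exact permutation test cannot go below p = 0.33.

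The libraries were unequal. The 0h replicates held 948 and 3135 peaks and the 6h replicates 18761 and 28671. The genome-wide background recovered from each list was 2.77 and 2.65 reads in the 0h libraries and 2.76 and 2.13 in the 6h libraries. ChIP peaks in a bulk preparation do not tell fewer bound cells from less binding per cell.

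The reference sequences below show RUNX words that lay within 50 bp of the 6h summit, at 8 of the 12 named members where the nearest word did. In 13 other named members with a word in the 250 bases before the start, it lay over 50 bp away, up to 661 bp at Ctdspl. The remaining 71 of 96 named members with a tabled start held no such word there. They are from NCBI RefSeq promoters on GRCm38.p6, all upstream of the start, read 5′ to 3′ along the strand of the gene, with each RUNX word on either strand in capitals (ACCGCA is TGCGGT on the other strand). Ift57, Snx14 and Zfp637 were among members named for a high 6h rank or from a gene list, Sirt3 shares its divergent start with the proteasome gene Psmd13, Rpl37 and Necab3 (beside the finish of E2f1) came from lists, and Kmt5a and Setd1a were added after their values were seen.
Ift57, chr16:49699228-49699293, plus strand: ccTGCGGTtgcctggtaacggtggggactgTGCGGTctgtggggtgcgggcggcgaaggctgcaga
Snx14, chr9:88438948-88439013, minus strand: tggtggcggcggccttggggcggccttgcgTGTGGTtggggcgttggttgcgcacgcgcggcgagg
Sirt3, chr7:140882310-140882367, minus strand: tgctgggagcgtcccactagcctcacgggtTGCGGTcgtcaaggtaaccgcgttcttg
Setd1a, chr7:127777144-127777209, plus strand: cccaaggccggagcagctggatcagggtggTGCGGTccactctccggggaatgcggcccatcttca
Kmt5a, chr5:124439884-124439929, plus strand: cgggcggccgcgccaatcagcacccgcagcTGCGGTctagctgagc
Zfp637, chr6:117841253-117841274, plus strand: ggcgcgcgccgcTGCGGTgagt
Necab3, chr2:154558855-154558884, minus strand: ggcggcctggtaACCGCAacccgcagcctt
Rpl37, chr15:5116395-5116424, plus strand: cggactgccaacACCGCAgcagccccgaca

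The words printed for Zfp637 and Necab3 were centred 10 bp from the 6h summit, those of Kmt5a and Setd1a 14 bp, that of Rpl37 15 bp and that of Snx14 23 bp from it. At Ift57 the nearer of its words lay 25 bp from the summit and at Sirt3 the word lay 27 bp from it. A match describes the letters in the window and is not evidence of contact. Of the 588 members whose summit fell in a reference promoter (250 bases before to 50 after a start), 34.7% (30.8% to 38.7%) held TGTGGT or TGCGGT on either strand, against 22.4% of all 32851 promoters of that length and 19.7% of the 9690 with at least 60% GC. Without 0h replicate 2 the set became the 306 regions with any peak of 0h replicate 1, of which 292 were the regions replicated at 0h. In that set, which is mostly not the members, 54.1% of promoters held a RUNX word. With peaks limited to a −log10 q of at least 20, the members' share was 50.3%.

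Nearly all 0h peaks at the members were calls of 1 library. The rule required that they be unreplicated, but not which library held them. In 1259 members (98.9%, 98.2% to 99.4%) the 0h peak was in replicate 2 alone. In 13 it was in replicate 1 alone. At Nr1d2, which encodes the clock repressor REV-ERBβ, each 0h replicate had a peak, at separate places in the region. Defining the set from 0h replicate 1 alone left 306 regions, and from 0h replicate 2 alone 1552, since no 0h region can then be called replicated.

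The absence of a call in 0h replicate 1 put an upper limit on its signal there. If the local background of replicate 2 is scaled to replicate 1, the highest pileup that would have gone without a call was a median of 19 reads, and at least 17. Relative to replicate 2 and scaled for depth, this is at most 0.626 of the pileup at the median member (10th to 90th percentile 0.466 to 0.780). At the 292 gene-end regions with both 0h peaks the measured ratio of replicate 1 to replicate 2 was 0.718 at the median (0.536 to 0.958). The 10th to 90th percentile ranges of the limit and of the measured ratio overlapped, but the rule acts on both. The 292 regions had to have a replicate 1 call, and the members compared here had to lack one. The comparison therefore cannot show whether the 0h replicates differed more, or less, at the members. The members with the widest gap between the 0h libraries are named below.

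Before hCG the members were weak peaks. In 0h replicate 2 the median pileup at the summit was 30 reads and the median fold over local background 6.80, which placed the median member at the 39th percentile of that list. Of 1260 members with a peak there, 777 (61.7%) lay below the 50th percentile. Dividing each pileup by the genome-wide background of its library, which scales for depth, the median was 11.3 in 0h replicate 2. After 6 h the same regions stood at medians of 31.9 and 47.3 in replicates 1 and 2, from 88 and 101 reads. In 1247 of the 1260 members the 0h value was below both 6h values, and in 0 was it above both. The 6h value was a median of 2.82 times the 0h value in 6h replicate 1 (10th to 90th percentile 1.70 to 4.34) and 4.15 times in 6h replicate 2 (2.59 to 6.29). A rise was not particular to the members. The gene-end regions replicated at 0h had medians of 17.7 in 0h replicate 2 and of 49.8 and 73.4 at 6h.

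**Figure D1:**
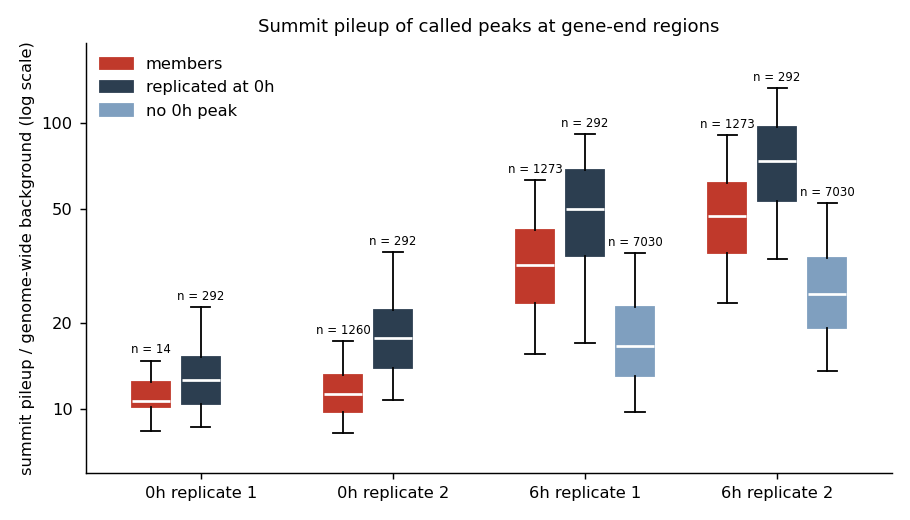
Summit pileup over the genome-wide background of the library (log scale) for gene-end regions under 2000 bp, by library. Boxes give the median and quartiles and whiskers the 5th and 95th percentiles. Only called peaks enter each box, so 14 members are shown for 0h replicate 1. Members have medians of 11.3 in 0h replicate 2 and 31.9 and 47.3 at 6h, between the 2 other classes at 6h.

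At 6h the members held a middle position among gene-end regions. Their fold, ranked within each 6h list and averaged over both, had a median percentile of 80.1, against 90.9 for the 292 regions replicated at 0h and 49.7 for the 7030 with no 0h peak. The pileup medians gave the same order. They were 137.5 and 156.5 reads at the regions replicated at 0h, 88 and 101 at the members, and 46 and 54 at the regions without a 0h peak. Of the members, 77.8% lay above the 50th percentile of both 6h lists and 264 (20.7%) above the 90th of both. Members were 971 bp wide at the median, against 1099.5 and 635 bp in the other classes, and a stronger peak is wider by the way it is called.

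The rule bounded the distance between 0h and 6h summits, since a 0h peak (median width 285 bp in replicate 2) had to overlap the 6h region. The 0h replicate 2 summit lay a median of 49 bp from the 6h summit, within 50 bp in 650 members (51.6%), and over 500 bp away in 46 (3.65%). The 6h replicates' own summits were 29 bp apart at the median. Across members, the pileup in 0h replicate 2 ranked with that in 6h replicate 1 at a Spearman rho of 0.462 and in 6h replicate 2 at 0.482 (n = 1260), and the 6h replicates with each other at 0.876 (n = 1273). These are descriptions across regions, which share libraries, depth and the lower limit of each peak list.

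The strongest members at 6h lay at genes of varied function. The 10 with the highest 6h percentile began with Dnajc10, a co-chaperone and disulfide reductase of the endoplasmic reticulum. Its region, chr2:80314923-80316151, had its summit 104 bp downstream of the start. The pileup was 314 and 343 reads at 6h and 59 in 0h replicate 2, where replicate 1 could have held up to 21 without a call. Ift57, an intraflagellar transport protein needed for cilia, had 246 and 239 reads at 6h and 31 in 0h replicate 2, with the summit 9 bp upstream of its start. Its 6h folds of 56.5 and 66.5 and those of Dnajc10, 55.6 and 72.8, placed both at the 99.9th percentile. Both 6h libraries stood far above the 0h peak in each.

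The transcriptional repressor Zbtb18 had 187 and 209 reads at 6h and 31 at 0h, 396 bp upstream of its start. Utp14b, a nucleolar protein gene, and Acsl3, a long-chain acyl-CoA synthetase gene, share the start at which the region chr1:78657297-78659072 lay. It had 264 and 289 reads at 6h and 65 in 0h replicate 2. Plekha8, a glycolipid transfer protein gene, had 157 and 240 reads at 6h and 26 at 0h, so its 6h libraries differed more from each other than those of the genes above.

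Znrf3, a ubiquitin ligase that removes Wnt receptors, had 148 and 191 reads at 6h and 44 at 0h. Spen, a corepressor that also serves X inactivation, had 145 and 196 reads at 6h and 46 at 0h. The region at Gclm, the modifier subunit of the enzyme that limits glutathione synthesis, had 237 and 279 reads at 6h and 38 at 0h. In all 3 of these the 0h peak was below both 6h libraries. Snx14, a sorting nexin, had 176 and 224 reads at 6h and 44 at 0h. The ninth of the 10, 860 bp into the non-coding gene Gm41074, also lay inside Fst, which encodes the activin antagonist follistatin. It had 149 and 180 reads at 6h and 33 at 0h. Fst itself has no end within 1 kb of that summit.

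**Figure D2:**
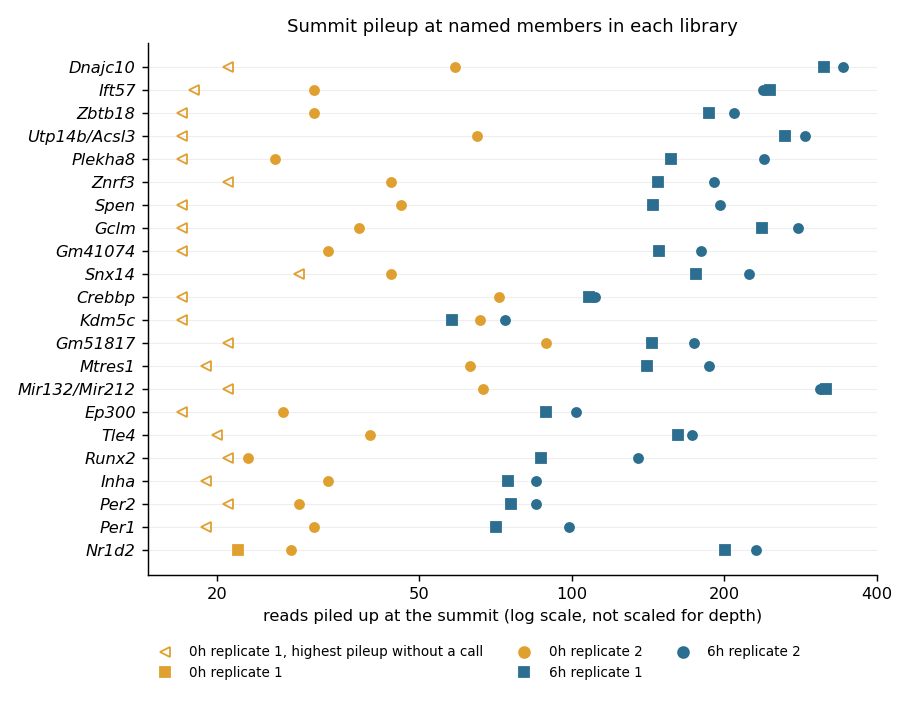
Reads piled up at the summit (log scale, not scaled for depth) at 22 named members. Filled circles and squares are called peaks of replicates 2 and 1, orange at 0h and blue at 6h, and open triangles are the highest pileup that 0h replicate 1 could hold without a call. Kdm5c alone of those drawn has its 0h peak (66 reads) between its 6h peaks (58 and 74).

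The highest 0h folds fell at 5 members. Crebbp, which encodes the RUNX1 coactivator CBP, had 72 reads in 0h replicate 2 and a fold of 19.4. Its region, chr16:4213955-4214616, had the summit 265 bp outside the annotated gene end and at -818 bp from the nearest tabled start. At 6h it had 108 and 111 reads. The limit for 0h replicate 1 was 17 reads, so the 0h libraries were far apart here. Kdm5c, an X-linked demethylase of histone H3, had 66 reads and a fold of 17.8 in 0h replicate 2 against a limit of 17 in replicate 1, and 58 and 74 reads at 6h. Scaled for background, its 0h value of 24.9 lay between the 6h values of 21.0 and 34.7. Utp14b had a 0h fold of 18.1. Gm51817, whose region lay 670 bp from the finish of that gene and inside the phosphatase gene Ppm1h, had 89 reads at 0h and 144 and 174 at 6h. Mtres1, a mitochondrial transcription factor gene, had 63 reads at 0h and 141 and 187 at 6h. At all 5 members replicate 1 was limited to between 17 and 21 reads by the missing call.

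Kdm5c was 1 of 13 members whose 0h value lay between the 6h values. The others were Agap1, Stat6, Ndufv3, Btnl4, Gm41856, Gm34931 (with Tchp), B3glct, Prrg2, n-R5s125, Stoml1, Twf2 and Ctdspl. Their 0h pileups ran from 30 reads at Stat6 and Stoml1 to 81 at Gm41856, and their 6h replicate 1 pileups from 27 at Stoml1 to 58 at Kdm5c. In these 13 the 0h replicate 2 library exceeded 6h replicate 1 and stayed below 6h replicate 2, after scaling.

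The 13 regions with a peak in 0h replicate 1 alone included 1 at Zfp174, a zinc finger gene (35 reads at 0h, 88 and 139 at 6h). Its summit lay 54 bp from an annotated end of Zfp174 and 27 bp upstream of a start of Zfp597. Shld1, a DNA repair factor gene, was another, with 31 reads and then 83 and 112. Pdk4, the kinase that shuts off pyruvate dehydrogenase, had 29 reads and then 74 and 121. Eif3l had 29 reads and then 66 and 106, and the respiratory complex I gene Ndufs5 30 reads and then 54 and 80. The remaining 8 were at Ccdc117, Ifrd1, Amdhd2, Gpd2, Ap5s1, Usp48, Speer4a and Mad2l1, with 24 to 41 reads at 0h. At Nr1d2 the 0h pileups were 22 and 28 reads and the 6h pileups 201 and 231. In each of these 14 the 0h reads were fewer than those of both 6h libraries.

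The lowest 6h ranks fell in part at multi-copy genes. The 5 members with the lowest 6h percentile were at the 5S ribosomal RNA gene n-R5s125, at the gene model Gm10060, at the tRNA clusters of n-TGtcc1 and n-TGtcc5, and at Gna13 with Gm11696. Gm10060 had 208 and 234 reads at 6h and 125 in 0h replicate 2, but on local backgrounds of 58.7, 46.6 and 32.5 reads, so its 6h folds were 3.50 and 4.94. The n-TGtcc1 cluster had 113 and 103 reads on backgrounds of 25.7 and 19.9 reads. Reads from near-identical copies of 5S and tRNA genes cannot be assigned with certainty, so those values are uncertain.

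Most members sat at transcription starts. A start of the RefSeq promoter table was within 1 kb of the summit in 1031 members (81.0%, 78.7% to 83.1%), against 72.3% of the regions replicated at 0h (66.7% to 77.3%) and 74.7% of those with no 0h peak (73.6% to 75.7%). Only a gene's finish was near in 34 members (2.67%), among them Junb, an AP-1 subunit gene, Hdac4, a histone deacetylase gene, and the DNA repair gene Ercc4. A finish only was near in 7.19% of the regions replicated at 0h and 3.93% of those with no 0h peak. In 208 members (16.3%) the tables did not settle whether the end was a start or a finish. That share was 20.5% in the regions replicated at 0h and 21.4% in those with no 0h peak. The start shares of the classes therefore differ in part by how many ends were settled. Of the 1031, 48.3% had the summit within 100 bp of the start and 78.4% within 250 bp.

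The summits were spread evenly about the start. In the members 49.5% (46.4% to 52.6%) lay downstream, with a median position of -1 bp. The regions replicated at 0h lay further upstream, with 41.2% downstream (34.5% to 48.2%) and a median of -27 bp, and those without a 0h peak further downstream, with 58.6% (57.3% to 59.9%) and a median of 34 bp. Starts on both strands stood within 1 kb of 253 members (19.9%, 17.7% to 22.2%), 19.2% of the regions replicated at 0h and 15.7% of those without a 0h peak. The chaperonin pair Hspe1 and Hspd1 is an example, with 101 and 140 reads at 6h and 41 at 0h. These intervals cover counting error only and treat regions as independent, and neighbouring regions share libraries.

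**Figure D3:**
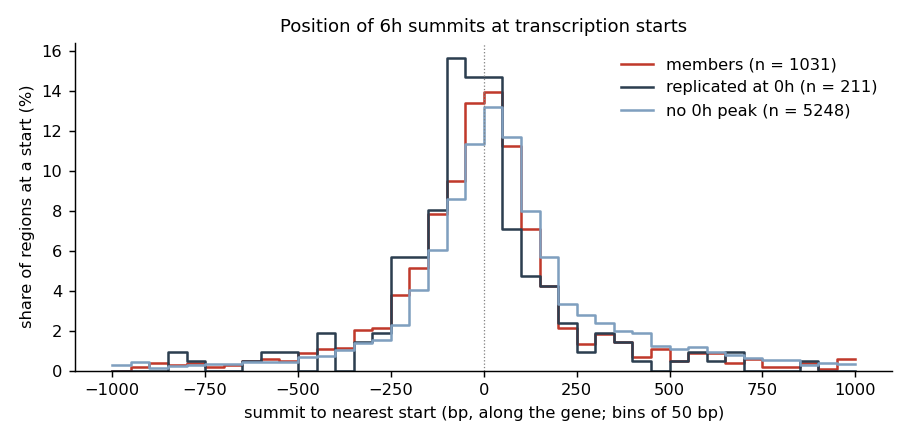
Share of regions at a start (%) by the signed distance from the 6h summit to the nearest transcription start, in bins of 50 bp, negative upstream. The members' curve peaks in the 50 bp on either side of the start (13.4% and 14.0%), and the curve of regions without a 0h peak is shifted downstream.

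The members and regions nearest to the limits of the rule were as follows. Ankrd63 and Gm40469 (996 bp from a gene end) and Uck2 (988 bp) were just inside 1 kb, with mean 6h percentiles of 57.9, 32.8 and 80.7. Just outside were Eif4a1 (1001 bp), C030034I22Rik (1005 bp) and Gm16174 (1009 bp), at 92.7, 65.9 and 91.0. Just inside the width limit were Ankhd1 (1982 bp), Mir132 (1975 bp) and Klf16 (1967 bp), at 68.6, 99.0 and 63.9, and just outside were AA386476 (2001 bp), Lnpep (2005 bp) and Hnrnpul2 (2014 bp), at 66.4, 83.8 and 88.3.

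Among promoter words, TGCGGT had the same order over the classes as the 6h peaks. It was in 22.6% of the members' 588 promoters (19.3% to 26.2%), in 38.0% of 142 promoters of regions replicated at 0h (30.02% to 46.5%) and in 13.4% of 2568 promoters of regions without a 0h peak (12.1% to 14.8%). All 32851 promoters held it in 6.45%, and the 9690 promoters with at least 60% GC in 11.2%. TGTGGT was in 15.0% (12.2% to 18.1%), 21.1% and 13.5% of the same classes, with 16.8% of all promoters and 9.56% of GC-rich ones. TGGCGT, a word with the letters of TGCGGT in another order, was in 15.1%, 14.1% and 13.6% of the 3 classes and in 11.3% of the GC-rich promoters. The GC-rich comparison and TGGCGT were added after the data were seen. The members' promoters had a median GC of 66.3%.

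In the members TGCGGT was densest nearest to the summit. Within 25 bp of the 6h summit TGCGGT began 2.00 times per kb of members' promoter scanned (56 words), 1.14 times between 25 and 50 bp, and 0.261 times beyond 150 bp. TGTGGT went from 0.892 to 0.355 per kb over the same distances, and TGGCGT from 0.749 to 0.474. In the regions without a 0h peak TGCGGT went from 0.969 to 0.229 per kb. In those replicated at 0h it stood at 2.48 within 25 bp (17 words) and 2.86 between 25 and 50 bp (18 words), and at 0.504 beyond 150 bp. The 133 members with TGCGGT in the promoter had median pileups of 109 and 124 reads at 6h, against 86 and 97 in the 455 without it. At 0h replicate 2 the medians were 31 and 30 reads, where the quartiles of both sets lay between 26 and 36.

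**Figure D4:**
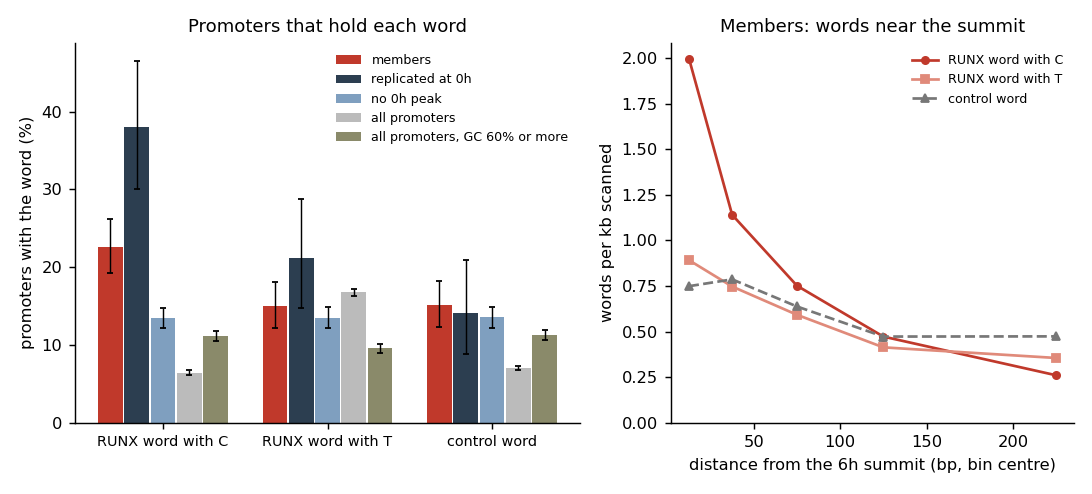
Left, share of promoters (%) that hold each 6-base word, for members, the other 6h classes, all promoters and those with at least 60% GC, with 95% exact intervals. The word with C is in 22.6% of the members' promoters and 38.0% of those replicated at 0h. Right, words per kb scanned in the members' promoters against distance from the 6h summit, where the word with C falls from 2.00 to 0.261 and the control word from 0.749 to 0.474.

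Words of other factors were counted for comparison. The ETS word CCGGAAG was in 24.7% of the members' promoters, 24.6% of those replicated at 0h and 22.4% of those without a 0h peak, against 8.86% of all promoters and 16.6% of the GC-rich ones. The SP/KLF word GGGCGG was in 78.2%, 70.4% and 75.9%, in 35.7% of all and in 80.6% of the GC-rich ones, above the share in each class. The CREB/ATF word TGACGTCA, the response element of cyclic AMP, was in 6.80%, 10.6% and 4.52%, in 1.79% of all and in 3.03% of the GC-rich ones. All words were searched on both strands.

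The members touched 1686 genes with an end within 1 kb, of which 1371 were protein-coding, 250 long non-coding, 17 tRNA and 13 microRNA genes by biotype. The 1371 are 6.26% of protein-coding genes, and 37.2% of protein-coding genes had any replicated 6h region at an end. Of those with any, 16.8% had a member. Gene lists are read against these shares, and the lists were drawn up with earlier results of these data known.

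RUNX1 and its partners formed the list with the largest share. Of 16 genes, 7 had a member (43.8%, 19.8% to 70.1%) and 11 any 6h region. They were the acetyltransferase genes Crebbp and Ep300, the Groucho corepressor genes Tle3 and Tle4, the methyltransferase genes Kmt2a and Prmt1, and Runx2. Tle4 had 162 and 173 reads at 6h and 40 in 0h replicate 2. Ep300 had 89 and 102 reads and 27. Runx2 had 87 and 135 reads and 23, just above the limit of 21 for replicate 1, at chr17:44814019-44815189 and 20 bp upstream of a start. Kmt2a had 41 and 56 reads and 26, the closest 6h and 0h values of these 4 genes. Runx1 itself had no member.

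Chromatin enzymes were next. Of 48 genes of histone modification, 15 had a member (31.2%, 18.7% to 46.3%) and 38 any 6h region, so 39.5% of those with any had a member. Besides the 4 shared with the list above they were the H3K4 methyltransferase genes Kmt2c, Kmt2d and Setd1a, Setd2, Kmt5a and Ehmt2 for other lysines, the Polycomb subunit gene Suz12, the acetyltransferase gene Kat7, the demethylase genes Kdm4a and Kdm5c, and Hdac4. Kat7 had 172 and 169 reads at 6h and 39 at 0h, and the region at the start of Prkag1, near which Kmt2d finishes, 103 and 137 reads and 30. Hdac4, at the finish of the gene, had 38 and 36 reads at 6h and 35 at 0h, so its 3 values lay within a few reads of each other.

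Among 18 circadian clock genes 5 had a member (27.8%, 9.69% to 53.5%), beside 6.26% of all coding genes. Any 6h region was at 16 of the 18, and 31.2% of those had a member, beside 16.8%. The repressor genes Per1 and Per2 had 71 and 99, and 76 and 85, reads at 6h, and 31 and 29 in 0h replicate 2. Dbp, an activator that clock proteins control, had 69 and 68 reads at 6h and 30 at 0h. Ciart had 90 and 87 reads at 6h and 31 at 0h. With Nr1d2 above, all 5 had fewer 0h than 6h reads.

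Splicing, chaperone and histone genes had members more often than protein-coding genes as a whole, at 10 of 49, 14 of 79 and 18 of 103 genes. They also had any 6h region more often, at 81.6%, 70.9% and 64.1% against 37.2%. Among the genes with any region the members were at 10 of 40, 14 of 56 and 18 of 66, a share of 27.3% for the histone genes, against 16.8% of coding genes. A region can count for several genes, as at H2ac7 with H2bc7 and at Hspe1 with Hspd1. The genes of a list are therefore not all separate members, though the intervals treat them so. Srsf3, a splicing factor gene, had 226 and 197 reads at 6h and 37 at 0h, and Srsf2 166 and 124 and 31. Dnaja1, an HSP40 chaperone gene, had 156 and 132 reads and 40. Among histone genes, H3c11 had 85 and 92 reads and 29, though reads of such near-identical genes are assigned with doubt. Genes of oxidative phosphorylation (11 of 86), ribosomal proteins (10 of 80), translation initiation (7 of 57), and RNA polymerase and Mediator (11 of 97) had intervals that reached down to between 5.08% and 6.56%, near the share of all coding genes. Cell cycle genes had 4 members of 28 (14.3%, 4.03% to 32.7%), at Ccnd3, E2f1, Cdkn1b and Rbl2. The proteasome (3 of 48), ubiquitin (4 of 48), zinc finger (31 of 458) and small RNA host and snoRNA lists (12 of 160) lay near 6.26%. Of the small RNA host and snoRNA genes, however, only 46 had any 6h region, and 26.1% of those had a member. Snhg9, Snora64 and Snora78 of that list shared a region.

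**Figure D5:**
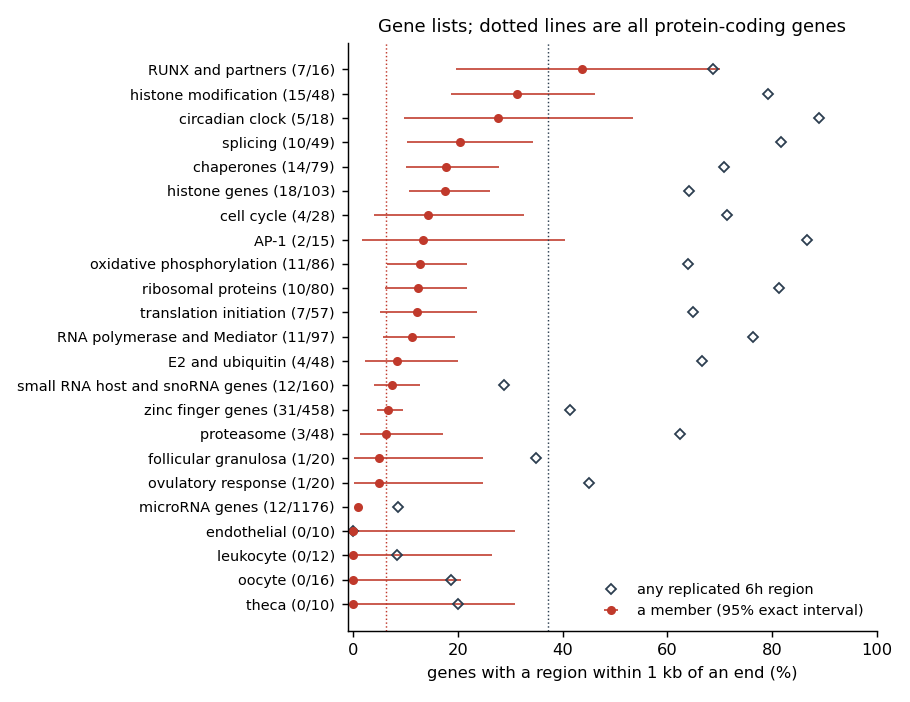
Share of genes in each list (%) with a member (red, 95% exact interval) or any replicated 6h region (open diamonds) within 1 kb of an end. Dotted lines mark all protein-coding genes, 6.26% and 37.2%. RUNX and partners (7 of 16) and histone modification (15 of 48) have the highest shares. Genes that share a region are each counted.

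Genes that define the granulosa cell and its response had members at about the share of all coding genes. Of 20 ovulatory response genes 1 had a member, Runx2, and 9 some 6h region. Of 20 follicular granulosa genes 1 had a member, Inha, and 7 some 6h region. Each share is 5.00% (0.127% to 24.9%), beside 6.26%, and among genes with some 6h region the shares are 11.1% and 14.3%, beside 16.8%. Inha, the alpha subunit of inhibin, had 75 and 85 reads at 6h and 33 in 0h replicate 2, 66 bp from an annotated gene end and at -466 bp from the nearest tabled start. A weaker member near both Obsl1 and Inha had 79 and 62 reads at 6h and 26 at 0h, at a mean 6h percentile of 45.8 against 77.0. AP-1 genes had 2 members of 15 (13.3%, 1.66% to 40.5%), and 13 of the 15 had some 6h region. The 2 were Junb (101 and 86 reads at 6h, 21 at 0h) and Mafk (85 and 100, 28). Of 48 marker genes of theca, oocyte, leukocyte and endothelial cells, 0 had a member and 6 some 6h region (Dazl, Gdf9, Kit, Ptch1, Spi1 and Tcf21). Binding near a marker does not measure its expression, so the cell type was not checked by RNA.

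Of 1176 microRNA genes named as such, 12 had a member (the 13 by biotype include Gm51271). Only 100 (8.50%) had any 6h region, so 12 of those 100 had a member, against 16.8% for coding genes. The strongest was that of Mir132 and Mir212, a pair known for its induction by luteinising hormone in granulosa cells. The region, chr11:75172134-75174108, had 317 and 309 reads at 6h and 67 in 0h replicate 2, against a limit of 21 in replicate 1. The mature forms from RefSeq share the seed, bases 2 to 8, shown in capitals. Mirlet7i, a let-7 gene, had 122 and 130 reads at 6h and 29 at 0h and carries another seed.
miR-132-3p: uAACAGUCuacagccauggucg
miR-212-3p: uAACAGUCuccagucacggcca
let-7i-5p: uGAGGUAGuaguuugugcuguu

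The X chromosome held 9 members (0.707%, 0.324% to 1.34%), against 1.37% of the regions replicated at 0h, 1.91% of those without a 0h peak (1.60% to 2.25%) and 4.41% of protein-coding genes. They lay at Ddx3x, Nyx, Cdk16, Zfp185, Apoo, Cxcr3, Jpx, Kdm5c and Ap1s2. Jpx, a non-coding RNA gene of the X-inactivation centre, had 128 and 152 reads at 6h and 24 at 0h. Ddx3x, an RNA helicase gene, had 177 and 145 reads at 6h and 34 at 0h. Of the 9, Kdm5c alone had a 0h peak above a 6h one.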

How the data were processed

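RUNX1 ChIP-seq peaks of 4 libraries were used. Reads were aligned with Bowtie2 2.2.5 to mm10 and peaks called with MACS2, per the submitters' processing notes (its version is not given in the sources used here). Per the series design, inputs were pooled within a time point. The deposited lists, 1 per library, give each peak's interval, summit, score, fold over local background, and −log10 of p and q. The lowest −log10 p was 9.01 to 9.18. Fold and −log10 p are the authors' values and were used within a list. The score was not used.

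From fold and −log10 p, the pileup p and local background were solved for each peak, taking fold as (p + 1)/(background + 1) and p as a Poisson tail. All peaks were solved, with −log10 p met within 0.00034. This procedure and the member rule were tested on simulated data. The most frequent background was taken as the library's genome-wide background; it also depends on the fragment length used in calling, which was not given. Total read numbers are unknown.

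Peaks of both replicates were merged when they overlapped by at least 1 bp. The summit is that of the region's peak with the highest −log10 p. Genes and promoters are RefSeq GRCm38.p6, the same assembly as mm10. Members and gene lists were chosen with earlier results of these data known. Replicates' independence is not stated. Shares carry 95% exact Clopper-Pearson intervals, which cover counting error only. Named are the 10 members highest at 6h, the 5 highest and lowest by 0h fold and 6h percentile, the 5 highest with a 0h replicate 1 peak, 3 on each side of both limits, and list genes, up to 4 per list, but all of the RUNX, ovulatory and follicular lists. The full histone modification, clock, X, finish and replicate 1 sets and members with a 0h value not below both 6h values were added after values were seen. Alternatives were another q limit, overlap, distance, width, gene set, rank and word, and leaving out each library. Python 3.11.15, pandas 2.3.3, numpy 2.4.6 and scipy 1.17.1 were used.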

Additional observations from a re-analysis of the deposited data

How the results depend on the processing

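Of 53 values under alternatives, 42 stayed within the spread set for them (a factor of 1.5 for counts, the exact interval for shares, 2.35 percentile points for the 6h rank) and 11 moved. With a −log10 q of at least 20 there were 346 members, their median 6h percentile was 91.7, 78.6% lay at a start, and 50.3% of promoters held a RUNX word. Ranked by −log10 p, the percentile was 84.7. TGTGGT alone was in 15.0% and TGCGGT alone, an alternative added after the data were seen, in 22.6% of promoters. Leaving out 1 library at a time gave 306 to 1552 members, a median percentile of 78.6 to 90.2, 72.9% to 81.5% at a start, 34.5% to 54.1% of promoters with a RUNX word, and 98.8% to 98.9% with a peak in 0h replicate 2 (only the 6h libraries could be left out for the last). The extremes of 306, 90.2, 72.9% and 54.1% came without 0h replicate 2, where the set is by construction the 6h regions with any peak of replicate 1. Gene ends within 500 bp and 2 kb gave 151 and 203 list genes with a member, against 173. No paired analysis was possible because no result came from a test and the replicate numbers share no stated source. Pileup limits in 0h replicate 1 rest on its scaled background, and depth in reads is unknown.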

Other observations

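The remaining lists hold members at genes of the basic machinery of the cell, given here as values with 0h replicate 2 last. Among genes of transcription, Polr3c, a subunit of RNA polymerase III, had 136 and 153 reads at 6h and 30 at 0h. The Mediator genes Med26, Med7 and Med1 had 82 and 121, 104 and 136, and 78 and 84 reads at 6h, and 39, 34 and 30 at 0h. The region at the start of the non-coding gene Snhg9, inside the annotated extent of the ribosomal protein gene Rps2 and within 1 kb of ends of Snora78 and Snora64, had 192 and 164 reads at 6h and 37 at 0h. In each of these the 0h peak held fewer reads than either 6h library.

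Mitochondrial members included Ndufab1, the acyl carrier protein of complex I, with 102 and 136 reads at 6h and 35 at 0h, and Uqcrfs1, the Rieske protein of complex III, with 77 and 82 reads and 29. The start shared by Sirt3, a mitochondrial deacetylase, and Psmd13, a proteasome subunit, had 120 and 114 reads and 38. Among cell cycle genes, the cyclin gene Ccnd3 had 71 and 112 reads and 24, the start of Necab3 near the finish of E2f1 103 and 125 reads and 35, and Cdkn1b, which encodes the inhibitor p27, 67 and 63 reads and 32. Eif2a, at a start shared with the secretory stress gene Serp1, had 97 and 120 reads and 36.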
